A study of Arabidopsis thaliana with 24 samples.

Results

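The 9 genes described here lie on chromosome 1 (AT1G17310, AT1G57650 and AT1G73860), chromosome 2 (AT2G15880, AT2G19970, AT2G32050 and AT2G44240), chromosome 3 (AT3G27473) and chromosome 5 (AT5G08110). Of the genes on the ATH1 microarray, the annotation gave 12431 a probe set of their own that was used here. The 9 were those among these with the largest increase in the Arabidopsis thaliana mutant sdg8-5 relative to WT, under the conditions given next. They were ranked by the log2 difference between the genotypes averaged over 4 treatments. The choice also required an adjusted p (Benjamini-Hochberg, limma) under 0.05 for that difference and a positive difference in each of the 4 treatments. That difference is therefore given as a description and carries no test. The adjusted p also brought the spread between arrays into the choice. The responses to sucrose and to light, averaged over genotype, did not enter the ranking and were tested. Genotype differences in these responses were tested too, but the condition on each treatment restricts them. RNA came from shoots of hydroponically grown plants, 3 weeks old and beginning to flower, which had spent 24 h in darkness without sucrose and then received 1% sucrose (+C) or none (−C), in light of 70 µE (+L) or in darkness (−L), for 2 h. Each of the 8 combinations of genotype and treatment had 3 arrays, labelled as 3 sets of biological replicates, which makes 12 arrays of sdg8-5 and 12 of WT. The mutant is a single fast-neutron line that has lost the whole SDG8 gene, its promoter and part of the neighbouring gene AT1G77310. It was isolated in the background of the WT used here, which is not a plain accession but a line carrying the pASN1-HPT2 transgene.

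SDG8 is a histone methyltransferase that places methyl groups on lysine 36 of histone H3 along the bodies of genes. This mark accompanies active transcription in plants, and SDG8 is best known for its part in the timing of flowering, as mutants that lack it flower early. The 9 genes were higher in plants that lack this enzyme. The annotation at hand gives all 9 as protein-coding loci with the locus code as the only symbol and no function, and the table used here to name probe sets gave neither deletion gene, AT1G77300 (SDG8) nor AT1G77310, a probe set of its own, so the genotype labels were not checked here by the missing transcript.

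Values are MAS5 intensities, arbitrary units of brightness, with each array scaled to a trimmed mean of 500. An intensity under 40 is treated as off, because at that level the probe set hardly exceeds background. On this measure most means of the 9 genes per treatment were off in WT and on in sdg8-5. Of the 36 means per gene and treatment, 2 were under 40 in sdg8-5 and 29 in WT, and single arrays reached 40 in 99 of 108 cases in sdg8-5 and 32 of 108 in WT. On an array, 77.3% to 81.2% of all probe sets reached 40. A ranking by the log2 increase favours genes with WT values near background, so these counts describe the choice. In WT, 5 of the genes (AT2G44240, AT3G27473, AT1G73860, AT1G57650 and AT2G32050) were off in all 4 treatments, as were 1436 genes, or 11.6%, of all those named. AT1G17310 and AT5G08110 were off in 3 WT treatments, AT2G15880 in 2 and AT2G19970 in 1. Genes off in WT and on in sdg8-5 in all 4 treatments numbered 8 among the named genes, and 3 of them were among the 9 (AT2G44240, AT3G27473 and AT1G57650), while 20 named genes were on in WT and off in sdg8-5 throughout. Since whole shoots were used, fewer cells of a type and less RNA per cell cannot be told apart.

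**Figure D1:**
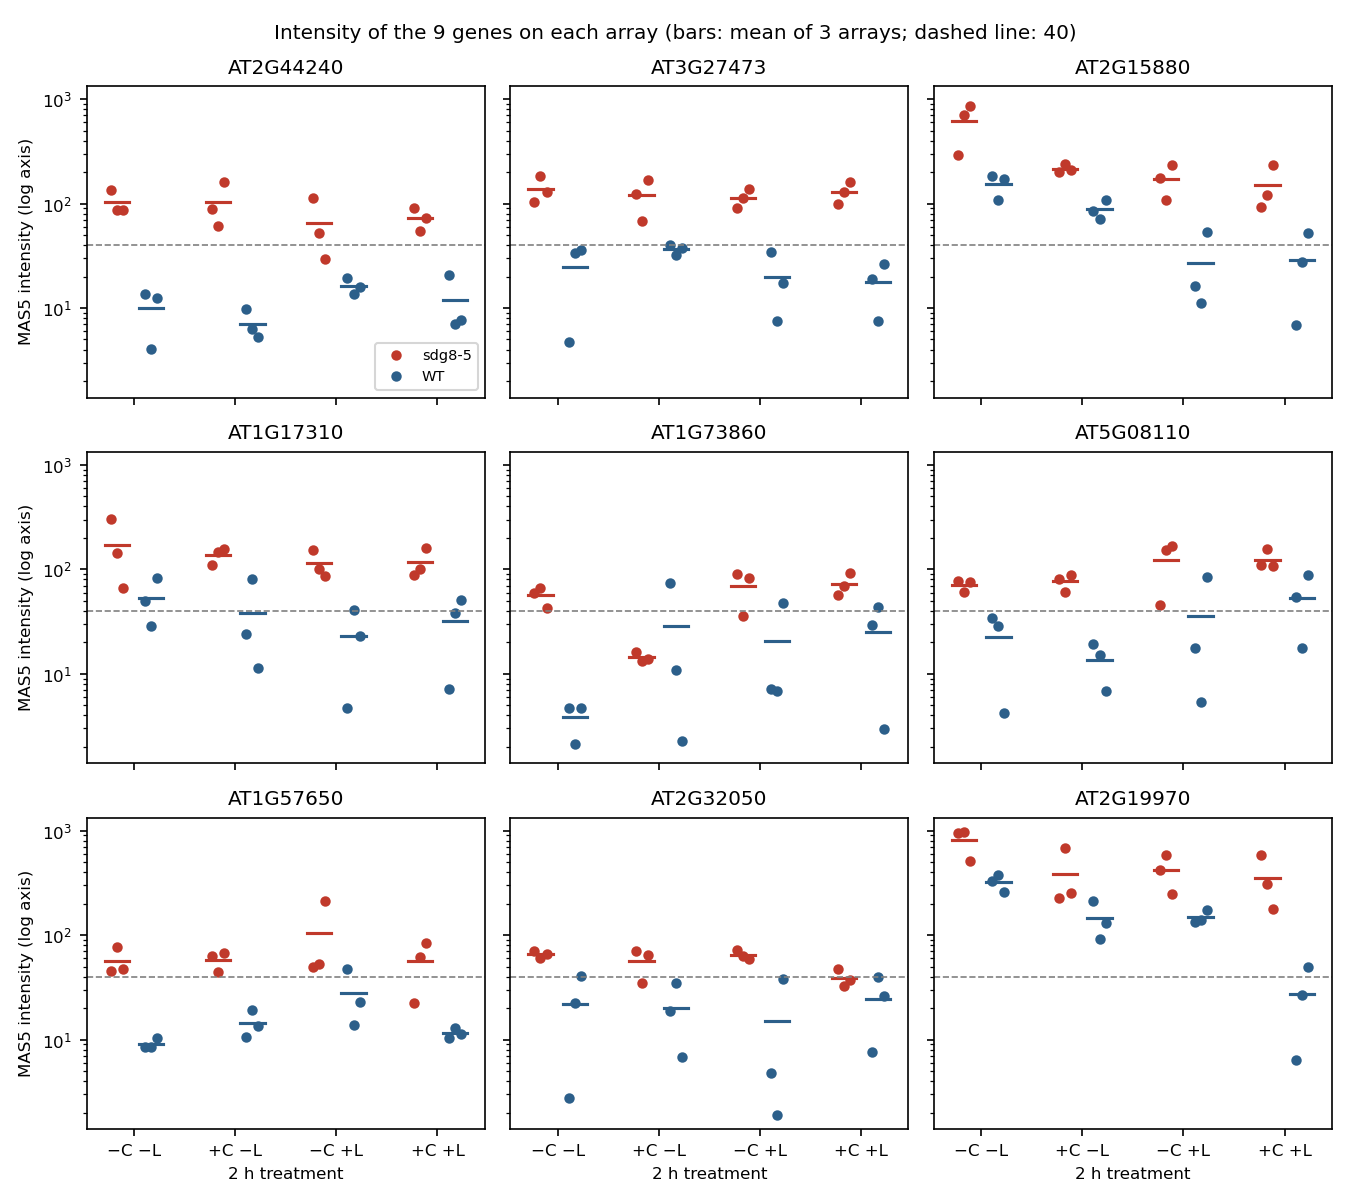
MAS5 intensity (log axis) of the 9 genes on each of the 24 arrays by treatment, with sdg8-5 in red left of WT in blue, bars at the mean of 3 arrays and a dashed line at 40. AT2G44240 and AT3G27473 lie above the line on 11 and 12 of the 12 sdg8-5 arrays and on 0 of the 12 WT arrays, whereas AT2G15880 and AT2G19970 are well above it in WT without light and sucrose.

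AT2G44240 had the largest increase of the named genes so ranked, 2.97 on the log2 scale (SE 0.27) or 7.82-fold. Without sucrose or light it read 86.6, 87.4 and 136 in sdg8-5, against 4.02, 12.5 and 13.5 in WT. With sucrose in darkness the values were 60.4, 89.4 and 159 in sdg8-5 and 5.27, 6.23 and 9.74 in WT. With light alone they were 29.7, 52.3 and 112 in sdg8-5 and 13.7, 16.0 and 19.6 in WT, and with both they were 54.2, 72.9 and 90.7 in sdg8-5 and 7.10, 7.72 and 20.8 in WT. The lowest sdg8-5 array of the series thus exceeded the highest WT array, although WT stayed under 40 everywhere and its level there has little precision.

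AT3G27473 showed the same separation, with 68.2 to 185 on the sdg8-5 arrays and 4.69 to 39.7 on the WT arrays. Its mean was 126 ± 34.1 in sdg8-5 and 24.7 ± 12.9 in WT (SD, n = 12 each), a log2 difference of 2.59 (SE 0.33). Among the 4 treatments its mean ran between 113 and 139 in sdg8-5 and between 17.6 and 36.5 in WT, and the log2 difference between 1.63 (+C −L) and 3.04 (+C +L). The third gene off in WT and on in the mutant throughout, AT1G57650, averaged 68.9 ± 48.1 in sdg8-5 and 15.8 ± 10.8 in WT (SD, n = 12 each). One sdg8-5 array under light without sucrose read 212.5, beside 49.2 and 52.6 on the other two.

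AT1G17310 and AT5G08110 were also on in sdg8-5 on all 12 arrays. AT1G17310 averaged 135 ± 62.0 in sdg8-5 and 36.7 ± 25.7 in WT (SD, n = 12 each), and its groups overlapped without sucrose or light, where the lowest sdg8-5 array read 66.9 and the highest WT array 82.4. AT5G08110 averaged 98.6 ± 41.1 in sdg8-5 and 31.4 ± 29.4 in WT (SD, n = 12 each). Under sucrose and light it was above 40 in both genotypes, at 107, 109 and 156 in sdg8-5 and at 17.7, 55.0 and 88.7 in WT. Its groups overlapped under light without sucrose, where an sdg8-5 array read 45.1 and a WT array 84.6.

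AT1G73860 and AT2G32050 stayed near the limit of 40 in the mutant as well. AT1G73860 read 43.0, 59.7 and 66.1 in sdg8-5 without sucrose or light, against 2.15, 4.68 and 4.69 in WT. With sucrose in darkness, however, it was off in both genotypes, at 13.2, 13.9 and 16.1 in sdg8-5 and at 2.30, 10.9 and 73.7 in WT, so the genotypes did not separate there. They also overlapped under light alone, at 35.8, 83.2 and 90.7 in sdg8-5 and at 6.78, 7.16 and 47.3 in WT. AT2G32050 averaged 56.5 ± 14.5 in sdg8-5 and 20.4 ± 15.4 in WT (SD, n = 12 each). Under sucrose and light its mean was 39.3 ± 7.68 in sdg8-5 and 24.6 ± 16.3 in WT (SD, n = 3 each), and the groups overlapped, as they did narrowly with sucrose in darkness, where the lowest sdg8-5 array read 34.7 and the highest WT array 34.8.

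AT2G15880 and AT2G19970 were the 2 genes whose mean was 40 or more in at least 2 WT treatments, and both were highest in starved plants kept in the dark without sucrose. AT2G15880 there read 295, 699 and 866 in sdg8-5, against 108, 171 and 185 in WT. AT2G19970 read 518, 954 and 978 in sdg8-5, against 258, 329 and 379 in WT. Over all treatments AT2G15880 averaged 289 ± 241 in sdg8-5 and 74.6 ± 59.5 in WT, and AT2G19970 averaged 494 ± 274 in sdg8-5 and 161 ± 117 in WT (SD, n = 12 each), log2 differences of 2.21 (SE 0.32) and 1.99 (SE 0.31).

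Counted array by array, every sdg8-5 array exceeded every WT array of the same treatment in 30 of the 36 pairs of gene and treatment, and in all 4 treatments for 5 genes (AT2G44240, AT3G27473, AT2G15880, AT1G57650 and AT2G19970). Over all 21490 probe sets tested, 0.945% showed this in all 4 treatments, and the shares within a treatment were 9.02% (−C −L), 9.73% (+C −L), 10.3% (−C +L) and 9.81% (+C +L). The genes were chosen by this contrast, so these counts describe the choice. The last gene inside the choice, AT2G19970, stood at 1.99 and the first outside, AT1G52560, at 1.98 (SE 0.62), followed by AT5G17150 at 1.90, with no gap at the limit of the choice. A further 15 of 8922 probe sets with no single gene assigned were raised at least as much, the highest by 3.64 on the log2 scale, and are not described because the annotation does not name them.

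The size of the differences depended on how low values were treated, since WT values near background decide many of them. With all values under 40 set to 40, the median of the 9 log2 differences became 1.01, against 2.16 as measured. AT2G19970 then stood at 1.72, AT2G15880 at 1.69 and AT3G27473 at 1.60, whereas AT1G73860 stood at 0.41, AT2G32050 at 0.49 and AT1G57650 at 0.62. On that scale AT2G44240, first by the measured values, stood at 1.01 and was exceeded by AT2G19970, AT2G15880, AT3G27473 and AT1G17310 (1.41). The order of the 9 genes therefore depended on the treatment of low values.

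**Figure D2:**
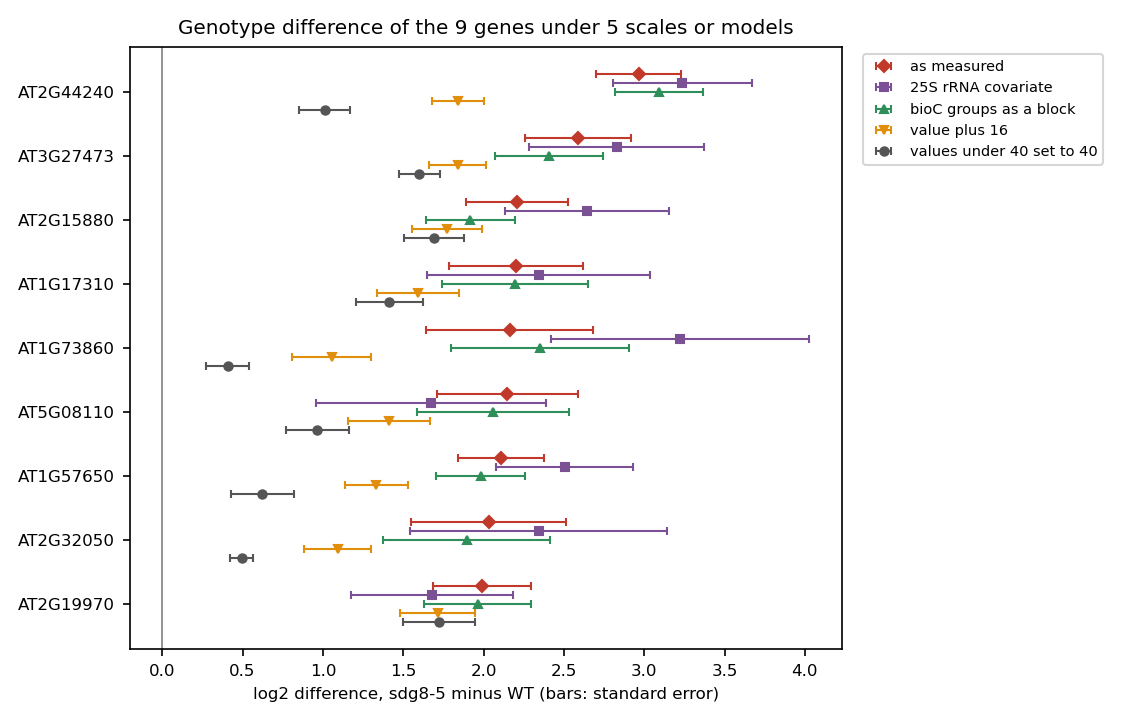
Log2 difference (sdg8-5 minus WT, x axis) of the 9 genes under 5 scales or models, with bars at the standard error. Setting values under 40 to 40 leaves AT1G73860 lowest, at 0.41, and AT2G19970 highest, at 1.72.

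The 9 genes were noisier than most probe sets of the array. Their residual SD between arrays of a condition ranged from 0.678 to 1.34 with a median of 0.847 on the log2 scale. The median over all probe sets was 0.316. It was 0.568 over the 8104 probe sets with a mean log2 intensity between the lowest and the highest of the 9. That range is wide and was not matched to each gene, so more noise than in equally dim probe sets is not shown. Across the 24 arrays the log2 values of their 36 pairs correlated with r between 0.198 and 0.793 (median 0.564) on values that contain the genotype difference by which the genes were chosen. After each condition's mean was taken off, r lay between −0.441 and 0.433 with a median of 0.0945, so that arrays high for 1 of the genes were not generally high for the others.

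The response to sucrose was asked next, as the study set out to see how SDG8 affects genes that respond to carbon and light. Averaged over genotype and light, 1 of the 9 genes responded at an adjusted p (Benjamini-Hochberg, limma) under 0.05, where 22.5% of all probe sets did. This was AT2G19970, which fell by 1.40 on the log2 scale with sucrose (SE 0.31, adjusted p = 0.00255). The other 8 had sucrose responses between −0.60 (AT2G15880, adjusted p = 0.202) and 0.27 (AT5G08110, adjusted p = 0.727). Their 95% intervals reached as far as −1.27 for AT2G15880 and 1.21 for AT2G32050, so a response of moderate size may have been missed.

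Light lowered 2 of the 9 genes and raised none, against 17% of all probe sets lowered and 19.8% raised. AT2G15880 fell by 1.81 on the log2 scale with light (SE 0.32, adjusted p = 0.000157) and AT2G19970 by 1.23 (SE 0.31, adjusted p = 0.00342). AT1G73860 and AT5G08110 had positive light responses of 1.19 (SE 0.52, adjusted p = 0.0857) and 0.85 (SE 0.44, adjusted p = 0.146) that did not pass. In the remaining 5 genes the light response lay between −0.61 (AT1G17310) and 0.38 (AT1G57650).

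The values of AT2G15880 by treatment show where its light response lay. With light alone it read 108, 174 and 232 in sdg8-5, against 11.3, 16.3 and 53.5 in WT. With sucrose and light it read 92.4, 121 and 236 in sdg8-5, against 6.96, 27.8 and 51.8 in WT, and with sucrose in darkness 199, 209 and 238 in sdg8-5, against 71.3, 84.7 and 108 in WT. In WT the dark and lit arrays did not overlap, and the gene was on in darkness and off, by its means of 27.0 and 28.9, in light. In sdg8-5 it stayed on under light, and the dark and lit arrays overlapped when sucrose was given.

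Within the genotypes, the light response of AT2G15880 was −1.21 in sdg8-5 (SE 0.45, 95% interval −2.16 to −0.26, adjusted p = 0.0602) and −2.41 in WT (SE 0.45, 95% interval −3.36 to −1.46, adjusted p = 0.000458). The response in sdg8-5 passed 0.05 under 8 of 15 other settings, whose adjusted p ran from 0.00184 with values under 40 set to 40 to 0.533 within 12 arrays of lower bioC signal, a hybridization control, and also when any of 5 single arrays was left out. The difference between the genotypes, 1.20 (SE 0.64, adjusted p = 0.816), did not pass, so a weaker response in sdg8-5 is not shown. On linear intensities the fall was larger in sdg8-5, at −257 units (SE 64.4), than in WT, at −93.4 units (SE 64.4). The order of the genotypes thus depended on the scale.

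AT2G19970 was lower with sucrose and lower with light in WT, averaged over the other factor. With sucrose in darkness it read 229, 254.5 and 681 in sdg8-5, against 92.1, 129.5 and 214 in WT, and with light alone 245, 418 and 591 in sdg8-5, against 135, 141 and 176 in WT. With both, it read 176, 309 and 580 in sdg8-5, against 6.41, 26.9 and 49.2 in WT. Its mean was below 40 in WT only under sucrose and light together, and the lowest sdg8-5 array of any treatment read 176.

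The sucrose response of AT2G19970 was −0.76 in sdg8-5 (SE 0.43, adjusted p = 0.292) and −2.05 in WT (SE 0.43, adjusted p = 0.00623), and its light response was −0.55 in sdg8-5 (SE 0.43, adjusted p = 0.417) and −1.92 in WT (SE 0.43, adjusted p = 0.00238). In WT the sucrose response was −2.88 on lit plants (SE 0.61, adjusted p = 0.0223) and −1.22 in darkness (SE 0.61, adjusted p = 0.302), and the light response was −2.74 with sucrose (SE 0.61, adjusted p = 0.00492) and −1.09 without (SE 0.61, adjusted p = 0.254). The interaction of sucrose and light, over both genotypes, did not pass for this gene (−0.38, SE 0.61, adjusted p = 0.884). The sucrose response of lit WT plants passed in 1 of the 9 genes and in 1.26% of all probe sets, and the light response of WT plants given sucrose in 2 (AT2G15880 too, −2.01, adjusted p = 0.0425) and in 14%. In WT without sucrose the light response passed in 1 of the 9, AT2G15880 (−2.81, SE 0.64, adjusted p = 0.00374), and in 20.2% of all probe sets, and the sucrose response in darkness in 0 and in 4.58%. The genotypes did not differ significantly in either response. The interaction was 1.29 for sucrose (SE 0.61, 95% interval 0.0011 to 2.58, adjusted p = 1) and 1.36 for light (SE 0.61, 95% interval 0.07 to 2.65, adjusted p = 0.767), and both changed sign when linear intensities replaced log2 values, to −95.6 (SE 133) and −71.2 (SE 133) intensity units. The sign of the difference between the genotypes thus depended on the scale. Without the arrays of replicate 2 neither the sucrose response of AT2G19970 over both genotypes (adjusted p = 0.0742) nor its light response (adjusted p = 0.0605) passed, and the light response in WT did not pass without replicate 1 (adjusted p = 0.0588). The light response of AT2G15880 over both genotypes passed whichever array or replicate set was left out, with a highest adjusted p of 0.0213.

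Of the 9 genes, 0 responded to sucrose and 0 to light within sdg8-5, where 14.6% and 23.8% of all probe sets did, and 1 responded to sucrose and 2 to light within WT, where 8.4% and 27.6% did. With values under 40 set to 40, these counts were 2 and 2 in sdg8-5 and 1 and 2 in WT. On linear intensities they were 1 and 2 in sdg8-5 and 0 and 0 in WT. Which genotype held more calls thus depended on the scale. At an adjusted p under 0.15 for interactions, 0 of the 9 differed between the genotypes in the response to sucrose, against 0.00465% of all probe sets. In the response to light 0 of the 9 differed, against 0.0372%. The choice, which required an increase in each treatment, left out genes whose genotype difference changed sign between treatments. Unadjusted p values under 0.05 (limma) were those of AT2G19970 for both interactions and of AT2G44240 for light. The share of all probe sets at this unadjusted level was not counted, so nothing is read from how many of the 9 reached it. AT2G44240 had a light response of −0.64 in sdg8-5 and of 0.75 in WT, a difference of −1.39 (SE 0.53, adjusted p = 0.661), but its WT values are all off. For sucrose by light, 0 of the 9 passed 0.05, against 0.34% of all probe sets. AT1G57650 had the lowest unadjusted value there, with an interaction of −1.26 (SE 0.53, adjusted p = 0.398).

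**Figure D3:**
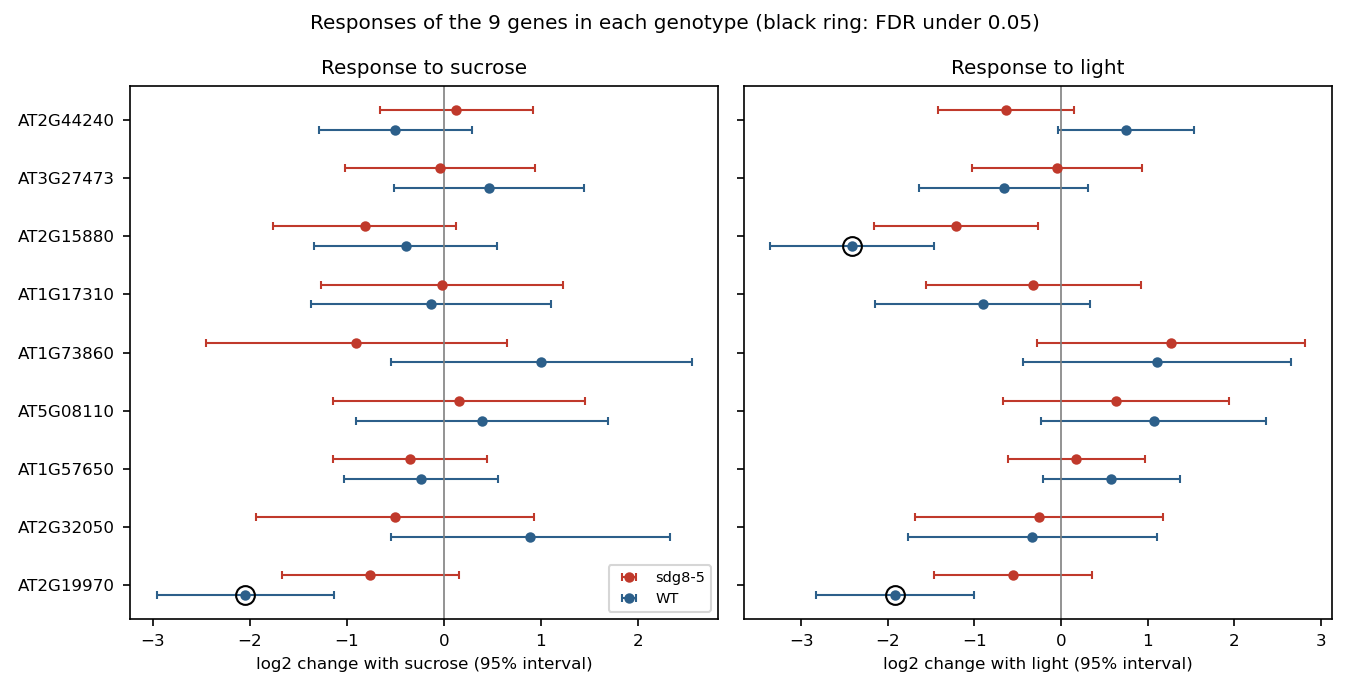
Log2 change with sucrose (left) and with light (right) in sdg8-5 (red, upper) and WT (blue, lower) for the 9 genes, with 95% intervals and a black ring at an adjusted p under 0.05. The rings lie on WT values of AT2G15880 (−2.41 with light) and AT2G19970 (−2.05 with sucrose, −1.92 with light), and of the other intervals all include 0 but that of AT2G15880 with light in sdg8-5 (−2.16 to −0.26).

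None of the 9 genes is a neighbour of another. The nearest named genes on both sides, up to 2 a side within 5 genes, gave 28 neighbours, and their genotype difference was not used in the choice. Their median log2 difference was 0.07, against 0.01 over all named genes. The increase passed an adjusted p of 0.05 in 5 of 28 and a decrease in 1, against 8.49% and 10.1% of all named genes. Increases over 0.5 on the log2 scale that passed lay beside AT2G19970 and AT1G57650.

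Both sides of AT2G19970 held such a gene. AT2G19960, 2 genes before it, averaged 45.6 ± 20.3 in sdg8-5 and 23.6 ± 18.7 in WT (SD, n = 12 each), a log2 difference of 1.39 (SE 0.29, adjusted p = 0.00239), but with values under 40 set to 40 its difference was 0.26 (SE 0.06, adjusted p = 0.00632). PR-1-LIKE (AT2G19990), 2 genes after it, named in the annotation for its likeness to the pathogenesis-related protein PR-1, averaged 267 ± 97.3 in sdg8-5 and 126 ± 51.3 in WT (SD, n = 12 each), a difference of 1.13 (SE 0.17, adjusted p = 0.000129). AT2G19980, which lies between, was at background in both genotypes, with 13.7 ± 13.9 in sdg8-5 and 11.4 ± 10.6 in WT (SD, n = 12 each). AT2G19930, 5 genes before, differed by 0.71 (SE 0.29, adjusted p = 0.0985).

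The responses of these neighbours were set beside those of AT2G19970. PR-1-LIKE had a light response of 0.26 in sdg8-5 (SE 0.24, adjusted p = 0.507) and rose with light by 1.04 in WT (SE 0.24, adjusted p = 0.00313), where AT2G19970 fell. AT2G19960 had a light response of 0.25 in sdg8-5 (SE 0.42, adjusted p = 0.742) and fell by 2.36 with light in WT (SE 0.42, adjusted p = 0.000269). Its arrays under light alone read 53.0, 46.9 and 49.3 in sdg8-5, against 4.68, 8.46 and 2.41 in WT, but the interaction of 2.61 (SE 0.59, adjusted p = 0.235) did not pass.

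AT1G57630, 2 genes before AT1G57650, averaged 472 ± 156 in sdg8-5 and 250.3 ± 124 in WT (SD, n = 12 each), a difference of 0.98 (SE 0.24, adjusted p = 0.00645). The gene on the other side, AT1G57670, differed by −0.85 (SE 0.39, adjusted p = 0.141). Smaller differences passed for AT1G17350 (0.43, 4 genes after AT1G17310), AT2G32070 (0.40, 2 genes after AT2G32050) and AT2G44210, which was lower in the mutant (−0.55, SE 0.07, adjusted p = 3.7e-05, 3 genes before AT2G44240). None of these calls but that of AT2G44210 and PR-1-LIKE passed with each of the 3 replicate sets left out in turn.

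**Figure D4:**
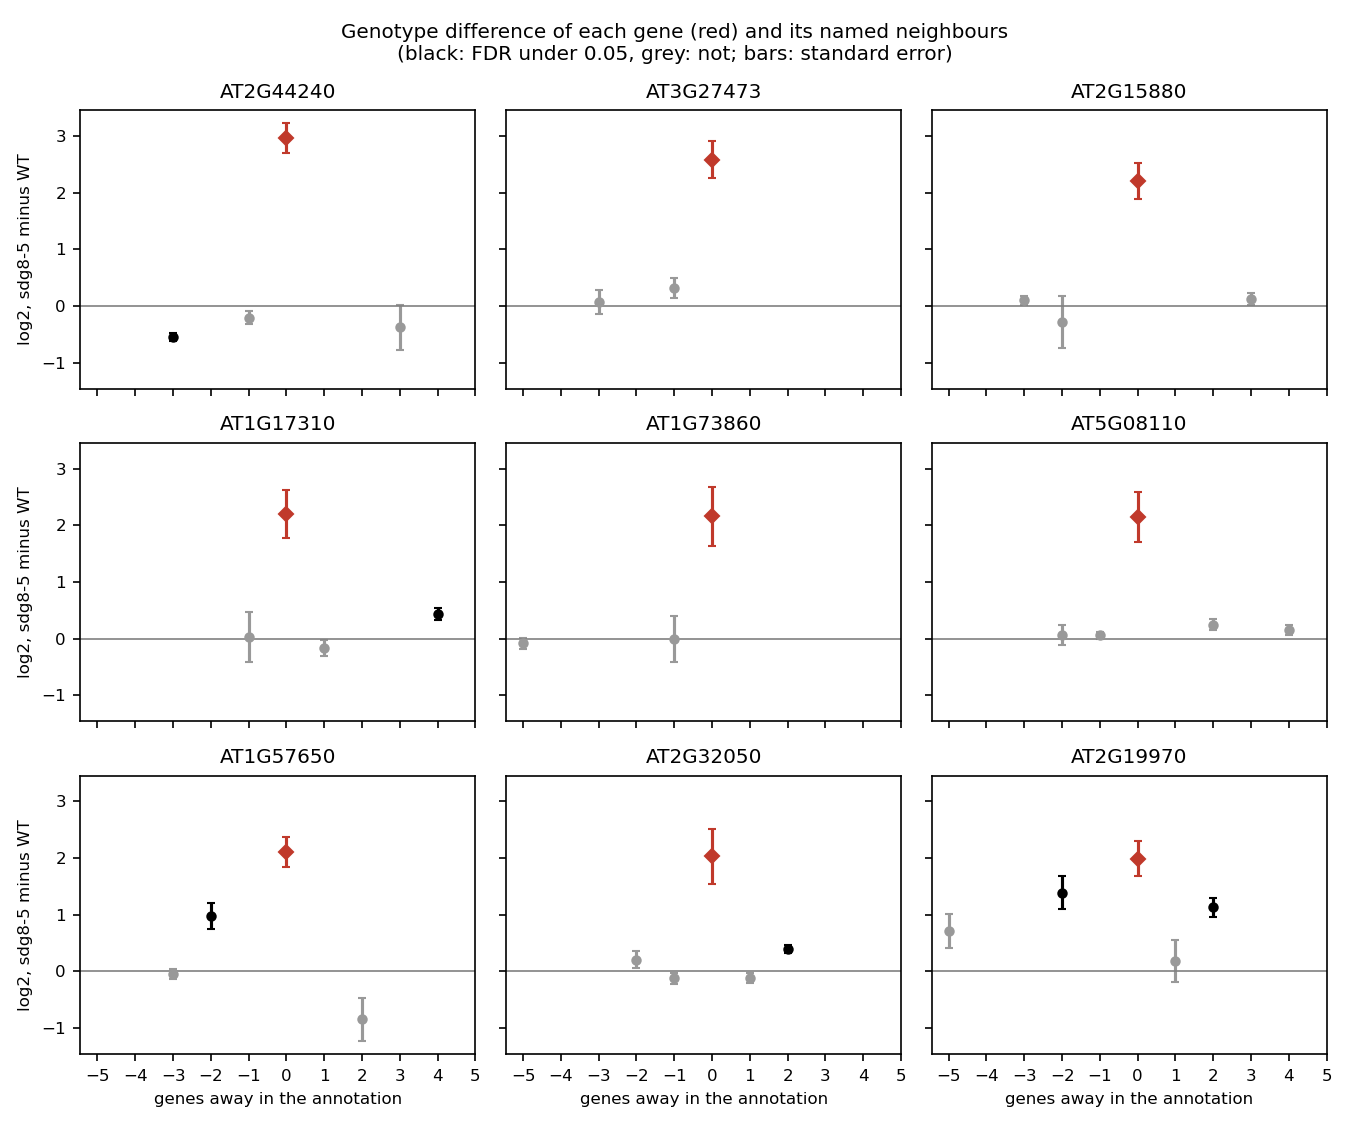
Log2 difference (sdg8-5 minus WT) of each of the 9 genes (red) and of its named neighbours, by the number of genes away in the annotation (x axis), black where the adjusted p is under 0.05 and grey where not, with bars at the standard error. Only AT2G19970 and AT1G57650 have neighbours above 0.5 that passed.

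As the labels describe plants of this age as starting to flower, markers of floral tissue were set beside the 9 genes. A gene counts as measured where the annotation assigned it a probe set of its own and that probe set was kept. The annotation assigned no gene to 8794 of the 22810 probe sets, so listed genes not counted may still be on the array. Of 24 pollen genes listed, 8 were measured. AGL65, a MADS-box gene of pollen, was higher in the mutant by 0.35 (SE 0.12, adjusted p = 0.0463), 1 of the 8, where 8.49% of all named genes were higher. This call was lost when any of several single arrays was left out, and also without the filter on low values. The other 7 did not pass. The differences of these 7 ran from −0.27 (AT5G07430, SE 0.38) to 1.01 (AT1G49490, SE 0.37, adjusted p = 0.0613), both genes with means under 40. The summed intensity of the 8 ran from 452 to 1003 on the sdg8-5 arrays and from 485 to 986 on the WT arrays. The brightest were ACT11 (mean 347 in sdg8-5, 319 in WT) and AGL65 (189 in sdg8-5, 149 in WT), so the sum says little about the dimmer pollen genes. Of 19 genes of floral organs and stamens, 2 were measured and neither passed. AMS, a regulator of tapetum development, averaged 14.5 ± 11.1 in sdg8-5 and 27.7 ± 18.8 in WT, and AT5G07230 averaged 16.2 ± 11.6 in sdg8-5 and 18.6 ± 14.3 in WT (SD, n = 12 each), both off in both genotypes. Their sum ran from 12.7 to 48.3 in sdg8-5 and from 8.57 to 79.2 in WT.

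Of 10 root genes, 4 were measured and 0 passed, with sums of 3567 to 8627 in sdg8-5 and 4205 to 8924 in WT. Of 14 leaf genes, 6 were measured and 4 were lower in the mutant, against 10.1% of all named genes. The sums ran from 14650 to 43500 in sdg8-5 and from 19920 to 55250 in WT. The 4 were LHCB4.2, LHCB4.3, PSAN and SBPASE, whereas RCA and PRK did not pass. The study lists all 4 among its functional targets of SDG8, genes with less of the mark and lower expression in sdg8-5. Their fall is thus not a measure of leaf tissue alone. Among the 4, SBPASE, an enzyme of the Calvin cycle, fell by 0.54 on the log2 scale (SE 0.09, adjusted p = 0.00026). Of 9 genes of flowering time, 2 were measured. GI, which links the clock to flowering, rose by 0.58 (SE 0.08, adjusted p = 5.57e-05) and AGL24 fell by 0.75 (SE 0.15, adjusted p = 0.00132). The part of tissue composition or flowering in the 9 increases was not tested.

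The arrays fell into groups of lower and higher signal of the control bioC, with 4 sdg8-5 and 8 WT arrays in the lower group and 8 sdg8-5 and 4 WT arrays in the higher, and the 25S rRNA control probes averaged 11.8 in sdg8-5 and 10.24 in WT on the log2 scale. The genotype differences of the 9 genes, whose positive sign follows from their choice on these arrays, ran within the bioC groups from 1.61 (AT1G57650) to 3.35 (AT2G44240) in the lower and from 1.13 (AT2G32050) to 2.84 (AT2G44240) in the higher, and from 1.67 (AT5G08110) to 3.24 (AT2G44240) with the 25S signal as a covariate. The 25S intensity also moved with light, from 498 to 8044 on lit and from 6030 to 15340 on dark sdg8-5 arrays, and from 371 to 508.5 on lit and from 1275 to 8823 on dark WT arrays. With this covariate the light response of AT2G15880 was −2.65 (SE 0.84, adjusted p = 0.0636), that of AT2G19970 −0.64 (SE 0.82, adjusted p = 0.748) and the sucrose response of AT2G19970 −1.20 (SE 0.40, adjusted p = 0.0598). Within the lower and higher bioC groups the sucrose response of AT2G19970 was −1.58 in the lower and −1.08 in the higher and its light response −1.16 and −0.92, none of them past 0.05 on 12 arrays, while the light response of AT2G15880 was −1.93 and −1.36 and passed in both. The part of the controls in these responses was not tested.

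For each gene the 2 named genes whose log2 values were most like it over the 24 arrays had r between 0.736 and 0.894, and a shared genotype difference enters these values. AT5G03880 was the closest to AT2G44240 (r = 0.887) and to AT3G27473 (r = 0.894), with a mean of 3454 in sdg8-5 and 1400 in WT. AT4G16870 was next to AT3G27473 (r = 0.871) and AT1G57650 (r = 0.822), with 582 in sdg8-5 and 210 in WT. For AT2G19970 they were AT1G14890 (r = 0.894) and TET5 (r = 0.847), and for AT2G15880 AT5G55790 (r = 0.889) and AT2G28450 (r = 0.881). Among the 16 different genes so found, 4 (AT5G03880, AT5G04070, AT5G04420 and AT5G04460) lie within 1 short stretch of chromosome 5.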

How the data were processed

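RNA from 24 shoot samples was hybridized to ATH1 arrays, 1 array a sample. The deposited values are linear intensities, which the authors computed with MAS5, and the version is not given in the sources used here. Each array has the same 2% trimmed mean of 500, with medians of 180.5 to 223.3, and 77.3% to 81.2% of probe sets at 40 or more. The number of arrays and the signal over background limit the precision. Of 22810 probe sets, 1258 that reached 40 on no array were left out. The probe annotation gives 13513 probe sets 1 gene, 503 several and 8794 none. A gene with several probe sets was represented by that of highest mean, and each of the 9 genes had a probe set of its own. Gene order and symbols came from a RefSeq gene table of the assembly TAIR10.1, of which no coordinates were used because the array states no genome build.

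Intensities were taken to log2 and fitted with limma 3.58.1 in R 4.3.3, as 8 condition means. Sucrose, light and interaction contrasts were tested over all probe sets with the Benjamini-Hochberg adjustment, at 0.05, or at 0.15 for interactions with genotype. A positive value means higher in sdg8-5, with sucrose or with light. The model was tested on simulated data. Alternatives were other filters, scales and normalizations, an analysis of variance, technical blocks or covariates and leaving out each array or replicate set.

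The 9 genes, the neighbour rule, the markers and the other lists were chosen with earlier results of these data known. By the rule for named genes, the 9 genes, their passing neighbours and the most alike genes were named, and others were named after their values were seen. Lists of gene families related to the 9 genes had been drawn up and were not used, because the annotation gives none of the 9 a family. No sequence was printed, as none was at hand.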

Additional observations from a re-analysis of the deposited data

How the results depend on the processing

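Leaving out an array or a replicate set moved the median genotype difference of the 9 genes, 2.16, between 2.04 and 2.42. With values under 40 set to 40 the median was 1.01. With that floor 2 genes responded to sucrose, 2 to sucrose in sdg8-5 and 2 to light in sdg8-5, against 1, 0 and 0 in the analysis reported. The light response in sdg8-5 was called in 1 gene with a filter at 100, with 16 added, with median centring, with the bioC groups or the replicate number as a block, within the arrays of higher bioC signal and with a trended, robust fit. Same-numbered replicates were not paired by the labels. Deviations of same-numbered arrays correlated above 0.1 in 6 of 84 pairs (median r 0.0253), against 3 of 168 differently numbered pairs (median r −0.014). With the replicate block the gene called for light in sdg8-5 was AT2G15880 (−1.21, SE 0.36, adjusted p = 0.0202), and no other member count changed. Within the arrays of higher bioC signal the gene called was not AT2G15880 (−1.35, SE 0.33, adjusted p = 0.0636). Of the 24 arrays, 14 correlated best with their own number. On linear intensities 1 gene responded to sucrose and 2 to light in sdg8-5, and 0 to either in WT. The interactions of AT2G19970 reversed there, to −95.6 units for sucrose and −71.2 for light. The light response of AT1G73860 reversed to −0.84 (SE 1.31) with the 25S covariate. This covariate left 0 sucrose responses, 0 light responses, 1 light response in WT and 3 neighbouring genes of 6. Other settings raised counts. Neighbouring genes numbered 9 with values under 40 set to 40. They numbered 7 with quantile normalization, the trended, robust fit and the analysis of variance on log2 or linear intensities. Light responses numbered 3 with values under 40 set to 40, on linear intensities and within the arrays of higher bioC signal. Within the arrays of lower bioC signal 0 genes responded to sucrose, 1 to light, 0 to sucrose in WT and 0 neighbours passed. Within those of higher signal the counts were 2 to sucrose, 0 to sucrose in WT, 1 to light in WT and 1 neighbour. Of the pollen and flower markers, 1 in the analysis reported, 0 passed without a filter, with the bioC block, in either bioC group or with the 25S covariate, and 2 with quantile normalization.

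Leaving out arrays or replicate sets gave 0 to 1 sucrose responses, 1 to 3 light responses, 0 to 2 sucrose responses in WT, 2 to 3 light responses in WT, 0 to 1 light responses in sdg8-5, 4 to 7 neighbours, 0 to 2 pollen and flower markers and 0 for the other counts. The sucrose response was lost without replicate 2, and the sucrose response in WT without replicate 1 or replicate 2. The light response in sdg8-5 was gained without the −C −L replicate 1 or the +C +L replicate 3 of sdg8-5, or without the −C +L replicate 3 or the +C +L replicate 1 or 3 of WT. The causes of these changes were not tested. Values under 40, which make up most WT values of these genes, set the limit of precision.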

Other observations

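The stretch of chromosome 5 that held 4 of the genes most like the 9 was looked at after that list had been seen. From AT5G03880 to AT5G04560 there were 37 named genes, of which 25 were higher in sdg8-5, 0 were lower and 12 did not pass an adjusted p of 0.05 (limma), and 7 of those 12 had a mean under 40. The increases that passed lay between 0.39 and 1.42 on the log2 scale with a median of 0.89, or 1.86-fold. AT5G03880 averaged 3454 in sdg8-5 and 1400 in WT, SIM, an inhibitor of cell division in trichomes, 1192 in sdg8-5 and 512 in WT, and DME, a DNA glycosylase that removes methylated cytosine, 647.5 in sdg8-5 and 335 in WT. The median over the 37 genes was 0.85 without sucrose or light, 0.79 with sucrose, 0.83 with light and 0.82 with both, and it was 0.75 and 0.82 within the arrays of lower and higher bioC signal.

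In 1212 windows of 50 consecutive named genes, moved by 10 genes at a time over the 5 chromosomes, the median window held 4 genes higher in the mutant. The window from AT5G03630 to AT5G04650 held 27 and 1 lower. The next window with no gene in common, from AT5G13770 to AT5G14710, held 12 and 2 lower. AT5G08110, the 1 of the 9 genes on this chromosome, lies outside this stretch. What sets the stretch apart was not tested.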
